A study of Mus musculus with 8 samples.

Results

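Hematopoietic stem cells (HSCs) that carried the mutant allele in both copies of Nras, NrasG12D/G12D (n = 3 arrays), were compared with wild-type Nras+/+ HSCs (n = 2 arrays). The comparison was restricted to genes with a probe flagged well above background on all 5 arrays, since a probe near background gives only a bound. Of 27745 gene names on the array, 6499 met this rule, and the 6164 of them with a probe free of outlier spots on the 5 arrays are described here. All samples were total RNA of HSCs from the bone marrow of mice of strain B6, measured on Agilent 1-colour arrays with 1 sample per array. The mutant allele was expressed from the endogenous locus, per the series title. The labels give neither the Cre driver or inducing agent, the age of the mice, nor the surface markers of the sort, and they leave unsaid whether the samples were taken from different animals. The p-values below therefore reflect only the spread within the 3 genotypes over all 8 arrays, which may be technical. The 3 arrays of NrasG12D/+ HSCs, with 1 mutant and 1 wild-type copy, shared the fit and are quoted beside some genes for reference.

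Nras is a small GTPase that relays signals from cytokine and growth factor receptors. In its GTP-bound form it engages RAF kinases, which activate MEK and ERK, and it also feeds the PI3K-AKT pathway. The G12D substitution impairs GTP hydrolysis, so that the protein stays in its active state. HSCs are mostly quiescent, and the balance between cytokine signals and cell cycle inhibitors sets how often they divide and how long they self-renew. NRAS mutations are recurrent in myeloid leukaemias.

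Signal was sparse on these arrays. Between 26% and 36% of spots stood well above background on the 5 arrays. With outlier spots left out, a further 9742 gene names were above background on some but not all of the 5 arrays, and 11839 on none. These counts include the 335 names flagged on all 5 arrays but left out for an outlier spot. Nras itself could not serve as a check of the labels: the best of its 3 probes was above background on 2 of 5 arrays, and these probes do not tell the mutant allele from the wild-type one. Nf1, Cdk4, Kit and Procr had no probe above background on any of the 5 arrays. Actb, Ccnd3, Cdk6, Cdkn1a, Cd47, Cd48 and Flt3 reached 4 of 5 arrays, and Cdkn1c, Cd34, Spry2 and Rasa3 reached 3. No value is given for these genes. Of 8 surface markers commonly used to sort HSCs, by their presence or their absence, Ly6a (Sca-1) and Slamf1 (CD150) alone were measured on all 5 arrays. The arrays therefore offer little check of the labelled cell type. Both Nras+/+ arrays lay on 1 slide and all 3 NrasG12D/G12D arrays on the other, so genotype and slide cannot be told apart within these 5 arrays. Values with the slide as a block rest on the NrasG12D/+ arrays, which lay on both slides. Replicates 1 and 2 of NrasG12D/+ lay on the slide of Nras+/+, and replicate 3 alone on that of NrasG12D/G12D. The slide term therefore depends on 1 array against 2.

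No gene separated the genotypes at an adjusted p under 0.05 in limma: 0 of 6164 genes (0%), and 0 of all 15065 genes tested (0%). The lowest adjusted p among the described genes was 0.576. At an unadjusted p under 0.05, 75 genes had a higher mean in NrasG12D/G12D (1.22%) and 188 a lower one (3.05%). Over all genes tested these shares were 1.31% and 5.15%. In 436 genes all 3 NrasG12D/G12D arrays lay above both Nras+/+ arrays (7.07%), and in 1240 all 3 lay below (20.1%). The same counts over all genes tested came to 5.83% and 22.1%. Every gene named below is therefore a measured difference that did not pass over all genes.

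The spread between arrays of 1 genotype was nearly as wide as the distance between genotypes, with each pair's median difference taken out. So centred, the absolute log2 difference of a gene had a median of 0.65 between the 2 Nras+/+ arrays. It was 0.74 to 0.89 between pairs of NrasG12D/G12D arrays and 0.76 to 0.98 between arrays of different genotype. The median standard error of a log2 difference was 0.90. A lower mean in NrasG12D/G12D was found in 3860 genes (62.6%) and a higher mean in 2304, with a median log2 difference of -0.32. This tilt depended on the scaling: 66.5% of genes were lower after normexp background correction and 56.7% after quantile normalization. The share was 50.9% where arrays were scaled to their median, 43% where the percentile was taken over every probe, and 36% in the deposited value table. The median difference under these settings was -0.23, -0.16, -0.02, 0.17 and 0.31. It also went with brightness. Of the 2055 dimmest genes 74.7% had a lower mean, of the 2054 in the middle 63.1%, and of the 2055 brightest 50%. List medians below are given relative to the median of all described genes, which takes out a shift common to all genes but not the relation to brightness. Relative to genes of like brightness, the median was -0.41 for ERK output and feedback, 0.37 for the RAF-MEK-ERK cascade, 0.02 for PI3K-AKT-mTOR components and 0.25 for splicing factors, beside -0.09, 0.16, 0.21 and 0.12 relative to all described genes.

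**Figure D1:**
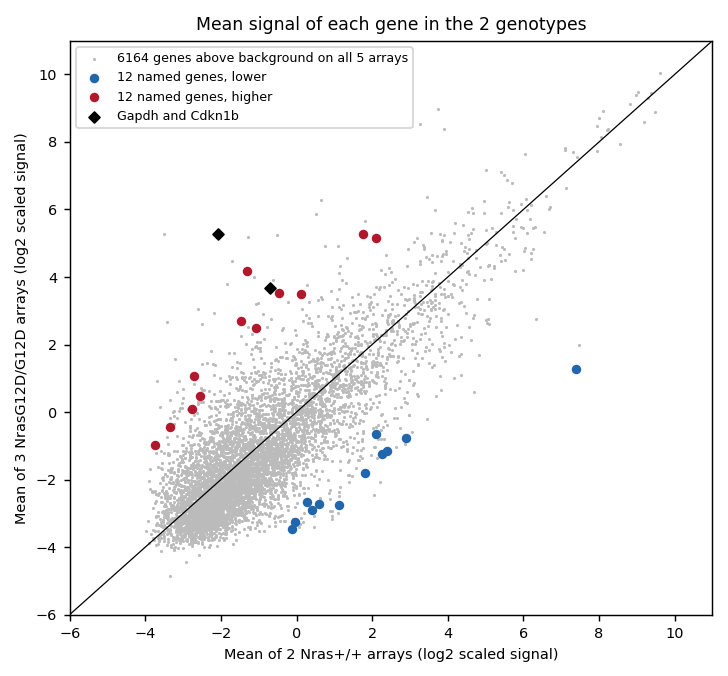
Each grey point is 1 of the 6164 described genes, with its mean over 2 Nras+/+ arrays on the horizontal axis and its mean over 3 NrasG12D/G12D arrays on the vertical axis, both as log2 scaled signal; the line marks equal means. The 12 named genes of each direction lie at log2 differences of 2.76 to 5.47 above the line and -2.77 to -6.13 below it, with Gapdh and Cdkn1b as diamonds.

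The 12 genes with the lowest p among those lower in NrasG12D/G12D had log2 differences from -2.77 to -6.13. Itih4, a secreted plasma protein related to the inter-alpha-trypsin inhibitors, read 2.96 and 2.82 on the Nras+/+ arrays and -0.91, -1.03 and -0.37 on the NrasG12D/G12D arrays, in units of log2 scaled signal. The replicates of each genotype lay close together and the groups did not overlap, and the difference was -3.66 (SE 0.71, limma adjusted p = 0.576). On the NrasG12D/+ arrays Itih4 read -0.27, -0.38 and 0.86. Plcg1, the phospholipase C that produces second messengers below activated receptors, read 2.44 and 1.79 against -0.97, -0.53 and -0.47, a difference of -2.77 (SE 0.70, limma adjusted p = 0.724). Its groups were likewise tight and apart. Ptpn11 encodes SHP2, the phosphatase that promotes Ras activation below receptor kinases and is itself mutated in juvenile leukaemia. It read -1.07 and 0.81 in Nras+/+ and -4.34, -2.66 and -3.41 in NrasG12D/G12D, a difference of -3.34 (SE 0.85, limma adjusted p = 0.724). All 3 mutant values were under both controls, though the controls themselves differed by more than 1 log2 unit. The other 2 probes of Ptpn11 and the other 2 of Plcg1 were above background on none of the 5 arrays.

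Sec14l2, a lipid-binding transfer protein, had the largest difference of the 12. It read 6.51 and 8.29 against 3.35, -2.09 and 2.55, a difference of -6.13 (SE 1.49), and NrasG12D/G12D replicate 2 stood far below the other mutant arrays. Gstp1, a glutathione transferase, read -0.17 and 0.99 against -2.21, -2.90 and -3.56, a difference of -3.31 (SE 0.83). A second Gstp1 probe, above background on 2 of the 5 arrays, gave 2.34, in the opposite direction. Mdga2, an adhesion protein of neurons, read -0.02 and -0.08 against -3.67, -3.13 and -3.02, a difference of -3.23 (SE 0.75). These 3 genes also had groups that did not overlap.

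The remaining 6 of the 12 shared a stretch of probe sequence. They were Nsa2-ps1, a pseudogene of the ribosome biogenesis factor Nsa2, Ttc26, a protein of the transport system inside cilia, Adamtsl5, a secreted protein, Magea8, a MAGE family gene, Hrh3, the histamine H3 receptor, and Slc23a3, a member of the ascorbate transporter family. Each probe of 60 bases holds the word CTCTGC or its reverse complement GCAGAG. So does the probe of Ccnd1, which encodes cyclin D1. The stretches are shown because the genes have no common function while their probes have this word in common; the word is in capitals, within 30 bases of the probe as the array's design gives it.
Nsa2-ps1: cttagcCTCTGCaaatcaacggtaaaagga
Ttc26: aaagcagctgagGCAGAGctcaaaagcttg
Adamtsl5: aaagccgcacgcCTCTGCgtactcgagaat
Magea8: tgaaaagtatGCAGAGgcattgcaagatga
Hrh3: gtgtacttacctcaggcCTCTGCatgctct
Slc23a3: cttaagacttgaGCAGAGgccatggtttag
Ccnd1: ctaatgtaaagaCTCTGCctttgcgaacgc

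These probes lie on different chromosomes. The files place that of Nsa2-ps1 at chr13:98230234-98230293, that of Adamtsl5 at chr10:79744461-79744520 and that of Magea8 at chrX:150326902-150326961, in a genome build they do not state. The 7 genes nevertheless had like values across arrays. Nsa2-ps1 read 0.58 and 1.65 in Nras+/+ and -2.60, -3.17 and -2.46 in NrasG12D/G12D, a difference of -3.86 (SE 0.77). Hrh3 read 0.86 and 2.75 against -1.65, -2.08 and -1.69, a difference of -3.62 (SE 0.88). Ttc26 read 1.68 and 2.82 against -0.91, -1.70 and -1.08, and Adamtsl5 read 1.85 and 2.92 against -0.90, -1.88 and -0.68. In each of them Nras+/+ replicate 2 was the highest array, and the 3 NrasG12D/G12D arrays were the lowest of all 8. For Magea8 and Slc23a3 the differences were -3.31 (SE 0.80) and -2.95 (SE 0.73), again with replicate 2 the higher of the controls.

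The word was looked for after these values had been seen, so its counts are a description without a test. CTCTGC or GCAGAG, which can overlap by the bases GC, occurs in 3.19% of all 41174 probes and in 380 of the 6164 described probes (6.16%). Of all probes that hold it, 31.1% were above background on all 5 arrays, against 16.3% of all probes. The 380 genes had a median log2 difference of -0.60, and in 109 of them (28.7%) all NrasG12D/G12D arrays lay below both controls, beside 20.1% of all described genes. Among the 100 lower genes with the lowest p, 36 hold the word, and among the 100 higher genes 2 do. The 5784 genes without it had a median of -0.30, and 62.2% of them had a lower mean. By array, the median signal of the 380 was -0.15 and -0.09 in Nras+/+, -0.50, -0.56 and -0.27 in NrasG12D/+, and -0.65, -1.16 and -1.19 in NrasG12D/G12D. The 3 mutant arrays with both alleles were the lowest 3 of the 8.

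A scan over all words of 7 bases, each pooled with its reverse complement, gave 1938 words found in at least 60 described probes. The middle 90% of their medians, relative to the median of all described genes, lay between -0.27 and 0.41. The lowest was that of CTCTGCC or GGCAGAG, with -0.81 over 133 genes, followed by CCTCTGC or GCAGAGG with -0.73 over 136 and CAGAGGC or GCCTCTG with -0.71 over 109. These words overlap each other within 1 longer stretch, so their genes are partly the same. At the other end stood AGCACAG or CTGTGCT, with 1.29 over 116 genes, and GGTGGTG or CACCACC, with 1.06 over 137. Of the probes with GGTGGTG or CACCACC, which make up 0.561% of the array, 62.8% were above background on all 5 arrays. The first of these 2 words occurs in 1.13% of all probes. A further 542 probes were above background on all 5 arrays without being the tested probe of their gene. Of the 29 among them that hold CTCTGC or GCAGAG and had a fitted value, 16 lay below the median of all described genes and 13 above. Of the 8 with GGTGGTG or CACCACC, 7 lay above it and 1 below. Of the 10 with AGCACAG or CTGTGCT, 6 lay above it and 4 below.

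The 12 genes with the lowest p among those higher in NrasG12D/G12D had log2 differences of 2.76 to 5.47. Fam220a read -1.47 and -1.49 on the Nras+/+ arrays and 2.15, 2.95 and 2.97 on the NrasG12D/G12D arrays, a difference of 4.17 (SE 0.82, limma adjusted p = 0.583). Its replicates were the tightest of the 12 on the control side. A further Fam220a probe, above background on 4 of the 5 arrays, gave 0.15. Col10a1, the collagen of hypertrophic cartilage, read -2.06 and -3.39 against 1.27, 0.80 and 1.14, a difference of 3.79 (SE 0.80), while the NrasG12D/+ arrays read -3.22, -3.20 and -4.78. Dusp22, a dual specificity phosphatase that acts on kinases of the JNK pathway, read -0.99 and 0.06 against 2.80, 5.42 and 2.37, a difference of 3.99 (SE 0.98). Its NrasG12D/+ values of -0.61, -0.68 and -0.55 stayed within the range of the controls. For both genes the heterozygous arrays therefore did not lie between the other genotypes.

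0610039H22Rik had the largest difference in this direction, 5.47 (SE 1.13), from 0.05 and -2.67 to 3.54, 3.17 and 5.79, with controls that differed by over 2 log2 units. Ube2s, the ubiquitin-conjugating enzyme that extends chains for the anaphase-promoting complex, read -3.23 and -3.47 against 0.71, -1.38 and -0.63, a difference of 2.92 (SE 0.86). Its second probe above background on all 5 arrays gave 1.56, so both probes annotated to Ube2s were higher in the mutant. The first was assigned to the gene by symbol, and whether both report its transcript was not tested. Arhgef10l, a guanine nucleotide exchange factor, read -2.11 and -3.03 against -0.71, 0.52 and 1.58, a difference of 3.03 (SE 0.92), while its second probe gave -1.16. Fads2, a fatty acid desaturase, read -0.44 and 0.67 against 5.07, 3.20 and 2.25, a difference of 3.39 (SE 1.06). The remaining named genes were Npffr2, a neuropeptide receptor (3.50, SE 0.96), Tubb4a, a beta tubulin (2.86, SE 0.80), AV039307 (2.76, SE 0.82), and Ngb and Cacna1s. None of the 12 had an adjusted p under 0.583.

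Ngb, a globin of neurons, and Cacna1s, a calcium channel subunit of skeletal muscle, are genes of other tissues whose probes share a repeat of 10 bases, GTCTGTCTGT. The same repeat is in the probe of Cyren, a regulator of DNA end joining, and the 3 stretches are shown with it in capitals.
Ngb: atctatgtgtGTCTGTCTGTtgatctgcct
Cacna1s: cggtgccaggGTCTGTCTGTcataaagcca
Cyren: tttaaaacatGTCTGTCTGTcccctcctcc

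Ngb read 2.97 and 1.25 in Nras+/+, 4.68, 4.79 and 4.85 in NrasG12D/+, and 5.63, 5.86 and 3.98 in NrasG12D/G12D, a difference of 3.04 (SE 0.86). Cacna1s read -0.11 and -2.02, then 2.84, 2.54 and 2.41, then 2.85, 4.01 and 0.57, a difference of 3.54 (SE 1.07). Cyren read 1.88 and 0.38, then 4.47, 3.91 and 2.89, then 4.89, 4.94 and 2.56, a difference of 2.996 (SE 0.984). In all 3 genes Nras+/+ replicate 2 was the lowest array and NrasG12D/G12D replicate 3 the lowest of the mutant arrays with both alleles. The repeat or its reverse complement ACAGACAGAC occurs in 9 of all probes (0.0219%), and 5 of these belong to described genes. The other two, Swap70 and a probe with no official symbol, had differences of 1.63 and 0.42, with groups that overlapped.

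**Figure D2:**
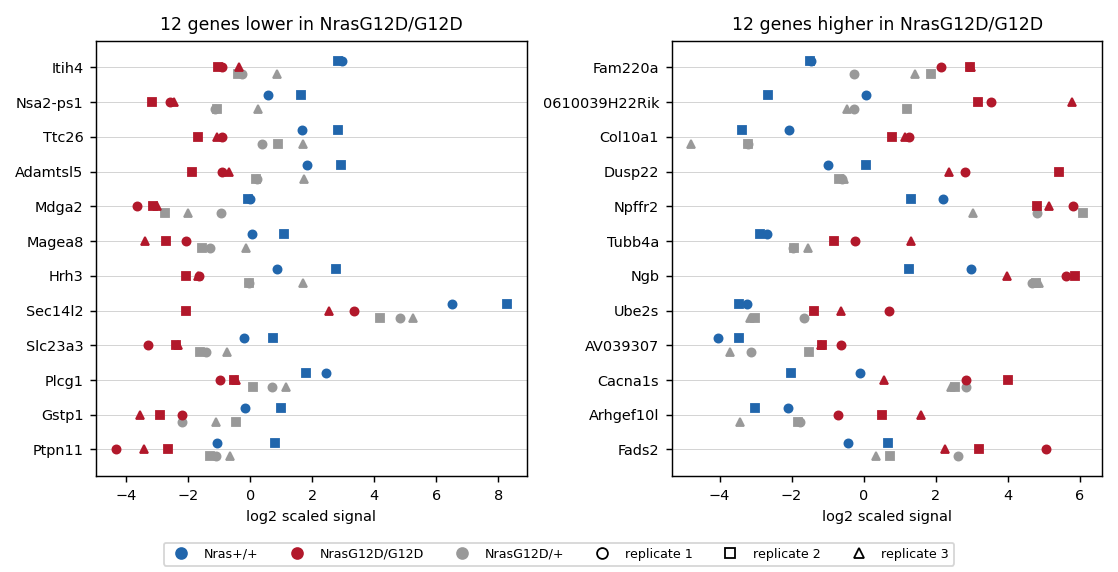
Log2 scaled signal of the 12 named genes per direction, ordered by p from the top, on every array: Nras+/+ in blue, NrasG12D/G12D in red and NrasG12D/+ in grey, with the marker shape giving the replicate. Red and blue points do not overlap in any gene shown, which the rule for naming required, and Sec14l2 has 1 red point at -2.09 far below the other two.

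Genes of the Ras pathway itself gave few measured members and no common direction. Of 26 genes of the Ras cycle and receptor coupling, 4 were measured, of which 3 had a lower mean, beside 62.6% of all described genes. Ptpn11 alone of the 4 had groups that did not overlap, in the lower direction that 20.1% of all described genes showed. Grb2, the adaptor that brings the exchange factor SOS to receptors, differed by -0.82 (SE 1.02). Rasgrp4, an exchange factor of myeloid cells, differed by -0.99 (SE 1.11). In the RAF-MEK-ERK cascade 7 of 20 genes were measured, 3 higher and 4 lower, with a median of 0.16 relative to all described genes. This sign turned to -0.17 with the slide as a block. Mapk3, which encodes ERK1, read -2.47 and -3.15 against -4.40, -1.65 and -2.83, a difference of -0.15 (SE 0.90), and its groups overlapped fully. Pebp1, a phosphatidylethanolamine-binding protein, read -0.64 and -0.15 against -1.57, -1.13 and -0.91, a difference of -0.81 (SE 0.70).

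Among genes that ERK signalling induces or that feed back on it, 6 of 20 were measured, 2 higher and 4 lower. Dusp6, the phosphatase that removes phosphate from ERK, read -0.47 and -1.63 in Nras+/+ and -2.64, -3.21 and -2.82 in NrasG12D/G12D. All 3 mutant arrays were below both controls, with a difference of -1.84 (SE 0.80, unadjusted p = 0.0484, limma adjusted p = 0.727), and the NrasG12D/+ arrays read -3.41, -2.63 and -1.50. Spry1, a feedback inhibitor of Ras signalling, differed by -0.36 (SE 0.87), Etv4 by -0.45 (SE 1.47) and Egr2 by 0.70 (SE 0.87), all with overlapping groups. Myc read -0.07 and 0.19 against 2.27, -0.94 and 1.68. NrasG12D/G12D replicate 2 was the lowest of the 5 arrays and replicate 1 the highest, and the difference was 0.95 (SE 1.02). The list's median of -0.09 relative to all described genes lay between -0.80 and 0.27 over the alternative settings.

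Ccnd1, the D-type cyclin that ERK signalling induces, read 0.90 and 2.33 in Nras+/+ and -1.32, -2.18 and -0.76 in NrasG12D/G12D, a difference of -3.03 (SE 0.90, limma adjusted p = 0.727). On the NrasG12D/+ arrays it read 0.11, -0.10 and 1.85. Its groups did not overlap, and its values over the 8 arrays were close to those of several other genes, with and without the word in their probes. The closest was a probe with no official symbol and without the word (Pearson r 0.996), and Rab5c (0.981) and Caly (0.979) also lack it. Of those that hold it, Zg16, a lectin of secretory granules, read 1.37 and 2.80, then 0.62, 0.33 and 2.08, then -0.82, -1.50 and -0.77. Zc3h13, which holds it too and is a factor of the RNA methylation machinery, read 0.80 and 2.54, then 0.47, -0.04 and 2.03, then -1.41, -1.59 and -0.89. Of 6150 described genes with values on all 8 arrays, 22 had a profile with a Pearson r over 0.95 to that of Ccnd1, given as a description across the same 8 arrays. Of these 22 genes, 14 hold CTCTGC or GCAGAG in their probe, beside 6.16% of all described genes. How much of the Ccnd1 signal comes from its own transcript was not tested.

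In PI3K-AKT-mTOR signalling 11 of 22 genes were measured, 5 higher and 6 lower, and the median was 0.21 relative to all described genes, or -0.88 with the slide as a block. Pik3cb, a catalytic subunit of PI3K, read -2.57 and -1.66 against -3.94, -2.91 and -3.44, a difference of -1.31 (SE 0.73). Mtor read -2.53 and -2.30 against -4.23, -2.86 and -4.04, a difference of -1.30 (SE 0.78). Both had groups that did not overlap, with NrasG12D/G12D replicate 2 nearest to the controls. On the NrasG12D/+ arrays they read -4.67, -3.63 and -3.87 for Pik3cb and -4.71, -4.27 and -3.23 for Mtor.

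Cytokine signalling was represented by 7 of 20 receptors and 7 of 19 JAK-STAT genes. Stat5a, which carries signals of interleukin 3, read -1.61 and -0.27 against -1.76, 0.16 and -2.08. The groups overlapped and the difference was -0.29 (SE 1.02), with an interval of 95% from -2.60 to 2.03. Stat3 read -0.33 and 0.87 against -1.92, -0.91 and -1.33, a difference of -1.66 (SE 0.92), whereas its second probe gave 0.29. Of the receptors, 5 had a lower mean and 2 a higher one. Il7r, a receptor of lymphoid progenitors, read -2.44 and -2.09 against -3.66, -2.97 and -3.70, and Csf1r, the receptor of macrophages, -1.63 and -2.03 against -4.07, -2.16 and -3.24. For these 2 receptors the groups did not overlap. The median of the receptors was -0.45 relative to all described genes and 2.42 with the slide as a block.

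Among lists with at least 5 measured genes, G1/S cell cycle genes had the lowest median. Of 33 genes of the G1/S transition and DNA replication, 6 were measured and 5 had a lower mean, with a median of -1.09 relative to all described genes. E2f1, the transcription factor of S phase entry, read -1.39 and 0.47 against -2.82, -1.60 and -2.004, a difference of -1.68 (SE 0.87). Mcm4, a subunit of the replicative helicase, read 3.88 and -0.56 against -2.05, -1.18 and -1.01, a difference of -3.07 (SE 1.37). Nras+/+ replicate 1 alone was high for Mcm4, and without that array the list median was -0.04. Without probes that hold CTCTGC or GCAGAG, among them that of Ccnd1, the median was -0.36. Ccnd2, the D-type cyclin that cytokines induce in blood cells, read -0.63 and -1.35 against -0.96, 0.79 and -1.21, a difference of 0.53 (SE 0.86). In G2/M and mitosis 10 of 29 genes were measured, 2 higher and 8 lower, with a median of -0.08 relative to all described genes. The phosphatase Cdc25b read 0.56 and 1.98 against -0.18, 0.01 and 0.25, and a second probe gave a difference of -0.86 beside the -1.25 of the first. The centromere motor Cenpe read -3.12 and -3.66 against -2.66, -0.03 and -2.47.

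Of 25 genes of quiescence and CDK inhibition, 5 were measured, 3 higher and 2 lower. Cdkn1b encodes p27, an inhibitor of cyclin-dependent kinases that holds cells in G1. It read -0.28 and -1.11 in Nras+/+ and 4.06, 7.10 and -0.16 in NrasG12D/G12D. Replicates 1 and 2 were far above the controls, while replicate 3 was level with Nras+/+ replicate 1, and the difference was 4.37 (SE 1.82, limma adjusted p = 0.727). The NrasG12D/+ arrays read 1.63, 4.06 and 4.10. A second Cdkn1b probe, above background on 4 of the 5 arrays, differed by -0.86. Cdkn2c, the p18 inhibitor, read -0.21 and -2.01 against 1.20, 0.20 and -1.37, and Foxo4, a transcription factor of stress resistance, -2.60 and 0.97 against -3.40, -2.55 and -3.14. The groups overlapped for both.

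HSC identity genes differed little relative to their spread. Of 40 genes in this list 15 were measured, 4 with a higher and 11 with a lower mean, and the median was 0.01 relative to all described genes. Of the 15, 1 had groups that did not overlap, in the lower direction, beside 20.1% lower and 7.07% higher among all described genes. This was Lmo2, an adaptor of the stem cell transcription factor complex, with 0.95 and -1.42 against -3.47, -2.94 and -1.97. Its difference of -2.56 (SE 1.34) turned to 0.94 with the slide as a block. Runx1, a master regulator of blood development, read 1.15 and 0.93 against 0.88, 2.44 and 0.45. Mllt3, a factor of HSC maintenance, read 1.72 and 2.13 against 1.22, 2.20 and 1.75, a difference of -0.20 (SE 0.72). Esam, a surface protein of HSCs, read 1.03 and 1.31 against 0.25, 1.35 and 0.72. Mllt3 and Esam were among the steadiest of the list, while Runx1 ranged from 0.45 to 2.44 over the NrasG12D/G12D arrays. The groups overlapped in all 3 genes. Of the sort markers, Ly6a read 0.88 and 1.25 against -1.33, 1.29 and -0.72, a difference of -1.32 (SE 0.89), with NrasG12D/G12D replicate 2 at the level of the controls. Slamf1 read -3.94 and -1.30 against -3.81, -2.53 and -2.80, a difference of -0.43 (SE 0.95). Of 27 adhesion and niche genes 8 were measured, 4 in each direction. The tetraspanin Cd82 read 2.31 and -1.72 against -2.70, -2.03 and -1.98, a difference of -2.53 (SE 1.11) with Nras+/+ replicate 1 alone at a high level.

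Markers of other blood and stromal cells were mostly not above background on all 5 arrays. Of 13 myeloid progenitor markers on the array 3 were described, of 11 mature neutrophil markers 2, of 13 monocyte and macrophage markers 3, of 13 erythroid markers 3, of 15 megakaryocyte markers 7, of 16 T and NK cell markers 3, of 14 endothelial and stromal markers 3 and of 9 mast cell and basophil markers 0. Defining genes such as S100a8 and Lcn2 of neutrophils, Lyz1 and Ccr2 of monocytes, Klf1 and Alas2 of the erythroid lineage, Pf4 and Ppbp of platelets and Cpa3 of mast cells were above background on none of the 5 arrays. They were picked from the undetected part of their lists. That part held 4 of 13 myeloid progenitor markers, 4 of 11 of neutrophils and 5 of 13 of monocytes and macrophages. It held 6 of 13 erythroid, 4 of 15 megakaryocyte and 8 of 9 mast cell and basophil markers. The other markers were above background on at least 1 of the 5 arrays, while the HSC markers Kit and Procr were so on none. B cell markers had 8 of 15 genes described, 5 higher and 3 lower, with a median of 0.64 relative to all described genes. Igll1, a surrogate light chain, read -2.63 and -2.66 against -0.88, -3.28 and -0.52, with groups that overlapped. Vpreb1, its partner chain, differed by -0.86 (SE 0.72) and Dntt, the terminal transferase, by -1.15 (SE 0.80), both with all NrasG12D/G12D arrays below both controls, while Cd79a, Ebf1, Rag1 and Rag2 were above background on none of the 5 arrays. In bulk samples, fewer cells of a type and less RNA per cell cannot be told apart.

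Cytosolic ribosomal proteins were the list with the most measured genes, 34 of 79. Their median stood 0.79 above that of all described genes, with 18 means higher and 16 lower, and between 0.28 and 0.96 over the alternative settings. Relative to genes of like brightness this median was 0.58. Single genes differed widely in both directions. Rps13 read 3.58 and 2.37 against 1.35, -0.19 and -1.40, a difference of -3.06 (SE 1.03), and Rpl37a 2.34 and 3.50 against 0.87, 0.27 and 0.60, a difference of -2.34 (SE 0.79). Both had groups apart in the lower direction. Rps19, mutated in Diamond-Blackfan anaemia, read -2.12 and -2.12 against 0.25, -0.67 and 0.13, a difference of 2.02 (SE 1.06), and Rpl29 read 3.84 and 3.61 against 5.64, 4.14 and 4.12. Several others were high on NrasG12D/G12D replicate 3 alone, such as Rpl13 with -4.10 and -2.14 against -2.92, -1.08 and 6.71, Rps29 with -3.08 and -2.12 against -3.67, -2.76 and 7.28, and Fau with -1.84 and -1.12 against -2.11, -1.51 and 5.86. Rps24 was high on replicate 2 alone, at 9.25 against -2.74 and -3.21 on the other mutant arrays. Many ribosomal protein genes have near-identical processed pseudogenes, so their probes may report more than 1 locus. By array the list's median was -1.29 and -1.38 in Nras+/+ and -1.02, -0.47 and 0.79 in NrasG12D/G12D.

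Glycolysis held the largest single difference. Gapdh read -2.20 and -1.96 in Nras+/+ and 7.19, 10.21 and -1.54 in NrasG12D/G12D, a difference of 7.37 (SE 2.75, limma adjusted p = 0.727). Replicates 1 and 2 were bright, while replicate 3 was level with the controls and with the NrasG12D/+ arrays at -0.45, -2.18 and -1.99. Gapdh, too, has many pseudogene copies. Hk3, the hexokinase of myeloid cells, read 2.17 and 1.01 against -1.74, -0.77 and -0.88, a difference of -2.72 (SE 0.75). Of the 9 measured glycolysis genes 5 had a higher and 4 a lower mean. In oxidative phosphorylation 18 of 77 genes on the array were measured, 8 higher and 10 lower. Ndufa12 of complex I read -1.24 and -0.77 against -2.97, -2.59 and -2.29, and Sdhd of complex II -1.80 and -1.32 against -3.34, -3.00 and -2.79. Both sets of arrays were apart, with differences of -1.61 (SE 0.78) and -1.49 (SE 0.72).

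Cholesterol and fatty acid synthesis had 10 of 31 genes measured, 8 of them with a lower mean, beside 62.6% of all described genes. In 6 of the 10 all NrasG12D/G12D arrays lay below both controls, beside 20.1% of all described genes. The median was -0.39 relative to all described genes and stayed between -0.64 and -0.16 over the alternative settings. Pmvk, a kinase of the mevalonate pathway, read -0.42 and 0.86 against -3.21, -2.51 and -2.43, a difference of -2.94 (SE 0.74, limma adjusted p = 0.724). Its second probe differed by -1.75, while its first probe holds CTCTGC. Nsdhl read -2.98 and -2.32 against -4.09, -3.60 and -3.88, a difference of -1.21 (SE 0.80). Lss, Srebf2 and Acaca were also among the 6, at -0.74, -0.68 and -0.61. Scap had a higher mean, at 1.40.

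DNA repair had the highest median of these lists, 1.33 relative to all described genes, from 5 measured genes of 35 on the array. Relative to genes of like brightness the median was 1.01. A higher mean was found in 4 of the 5, beside 2304 of all 6164 described genes. In limma 0 of the 5 had an unadjusted p under 0.05. Mre11a, a nuclease of double-strand break repair, read -4.18 and -2.79 against -2.61, -1.18 and -1.73, a difference of 1.65 (SE 1.24). Lig1, the replicative DNA ligase, read 0.44 and -0.12 against 2.13, 0.63 and 0.75, a difference of 1.01 (SE 0.88). The groups did not overlap in these 2 genes, in the higher direction that 7.07% of all described genes showed. Xrcc1 (1.28, SE 0.84) and Parp1 (0.36, SE 1.20) had groups that overlapped. Of the p53 list 7 genes were measured, 3 higher and 4 lower. Its target Gadd45a read -0.99 and -0.76 against -2.76, -1.48 and -1.80, and its target Ccng1 -2.28 and -2.30 against -0.45, -2.19 and 0.22, apart in opposite directions. In the BCL2 family and apoptosis list 5 of 7 measured genes had a higher mean, whereas Bcl2 itself read 1.15 and 2.83 against 1.15, 0.87 and 0.84.

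Other lists held single genes that stood apart. The translation initiation factor Eif3d read 0.00 and 0.01 against -3.36, -1.86 and -2.90, a difference of -2.71 (SE 0.80), within a list of 16 measured genes, 7 higher and 9 lower. Sqstm1, the autophagy receptor p62, read 1.27 and -1.94 against -3.13, -3.15 and -3.42, a difference of -2.90 (SE 0.95). Vps11, a subunit of the lysosomal tethering complexes, read -4.18 and -2.98 against -1.68, -0.73 and -1.08, a difference of 2.42 (SE 0.80), with a second probe at 0.26. Rab5c, a GTPase of early endosomes, read 2.26 and 3.43 against 0.34, 0.20 and 0.68, a difference of -2.44 (SE 0.81). Prdx2, a peroxidase of the FOXO and redox list, read 0.95 and 1.103 against 2.51, 2.08 and 3.03, a difference of 1.52 (SE 0.75), with a second probe at -0.14. Ube2r2 differed by 4.60 (SE 2.98), with NrasG12D/G12D replicate 2 at 8.66 while the other two read -2.94 and -3.00, near the controls at -3.84 and -3.54, and its second probe above background on all 5 arrays gave -0.50. Splicing factors, with 26 of 57 genes measured, had 10 higher and 16 lower means and a median of 0.12 relative to all described genes.

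**Figure D3:**
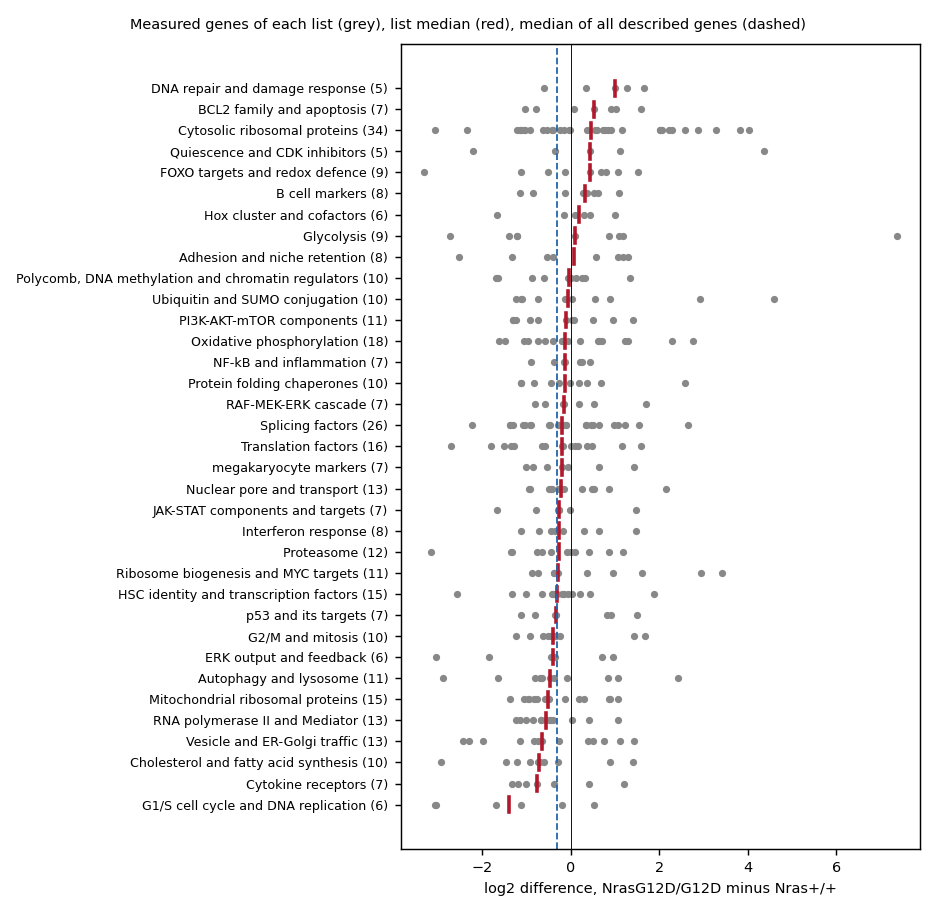
Log2 difference, NrasG12D/G12D minus Nras+/+, of every measured gene (grey) in lists with at least 5 measured genes, whose number stands in brackets; the red bar is the list's median and the dashed line the median of all described genes, -0.32. Members of every list shown fall on both sides of the dashed line, and the single point at 7.37 is Gapdh.

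Second probes of the same gene gave a measure of how far 1 probe can be read as its gene. In 503 genes at least 2 probes were above background on all 5 arrays. Relative to the median of all described genes, the 2 brightest had a difference of the same sign in 260 (51.7%), with a median absolute gap of 0.98 and a Pearson r of 0.09 across genes, which are not independent replicates. Their mean levels correlated across genes with an r of 0.59. In the 36 genes whose brightest probe had an unadjusted p under 0.05, 24 second probes had the same sign (66.7%), with an r of 0.32. Of the genes named above with a second probe on all 5 arrays, Adamtsl5 gave 1.36 beside -3.54, Ttc26 gave -0.56 beside -3.48, Arhgef10l gave -1.16 beside 3.03 and Ube2s gave 1.56 beside 2.92.

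**Figure D4:**
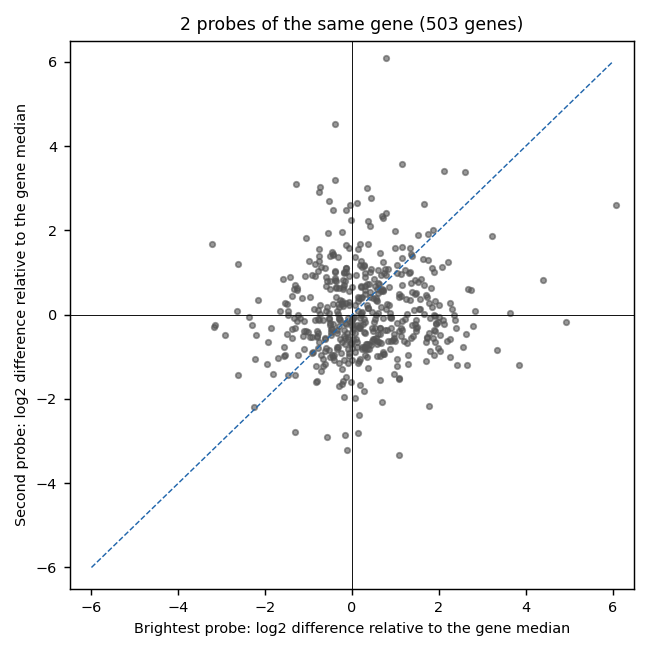
Each point is 1 of 503 genes with at least 2 probes above background on all 5 arrays: the log2 difference, NrasG12D/G12D minus Nras+/+, of the brightest probe (horizontal axis) and of the second probe (vertical axis), both relative to the median of all described genes. Points fill all 4 quadrants instead of following the dashed line of equal values, and 51.7% have the same sign.

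Base composition of the probe went with the difference as well. In the 1242 genes whose probe had a GC share of 20% to 40% the median log2 difference was -0.58, and 78.7% had a lower mean. In the next groups it was -0.42 (2088 genes up to 45%), -0.23 (548 genes up to 50%) and -0.07 (1977 genes up to 55%). In the 309 genes above that it was 0.15, and 43.4% had a lower mean. The share of genes with all NrasG12D/G12D arrays below both controls went from 26.2% in the lowest group to 9.71% in the highest. By array, the median of the lowest group relative to all described genes was -0.53 and -0.18 in Nras+/+, -1.27, -0.90 and -0.49 in NrasG12D/+, and -0.98, -0.35 and -0.82 in NrasG12D/G12D, so the genotypes overlapped. After each array had been centred within groups of like GC share, a setting chosen after seeing the data that brings the median difference to about 0 by construction, 714 higher and 837 lower genes had groups that did not overlap. The part of base composition in these differences was not tested.

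**Figure D5:**
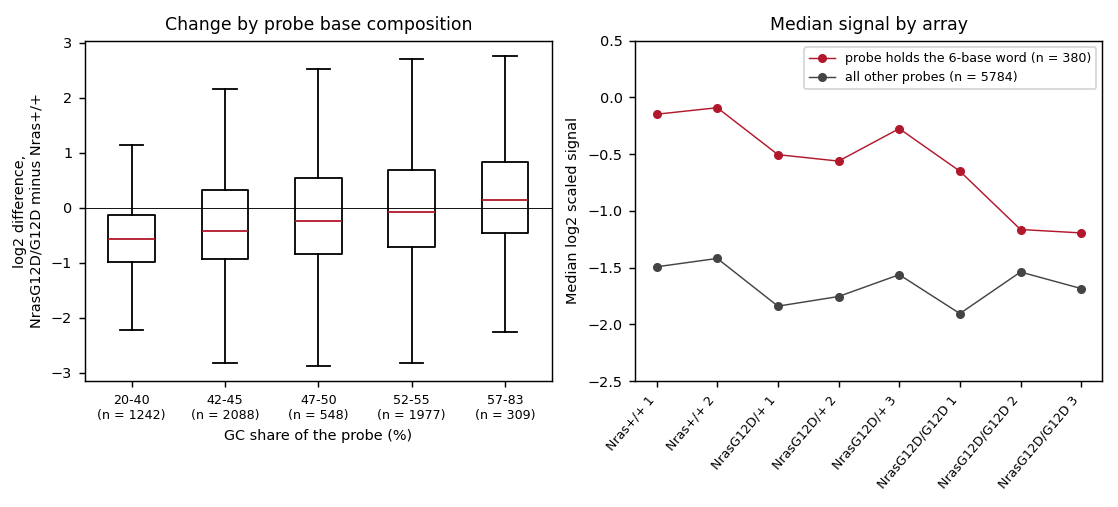
Left, log2 difference, NrasG12D/G12D minus Nras+/+, of the described genes by GC share of the probe (box, quartiles; red line, median; whiskers, to the farthest value within 1.5 times the box). Right, median log2 scaled signal on each array of the 380 genes whose probe holds the 6-base word shared by lower genes and of the 5784 others; medians on the left run from -0.58 to 0.15, and the red line is lowest on the 3 NrasG12D/G12D arrays.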

How the data were processed

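Arrays were 1-colour Agilent expression arrays, 1 per sample. Per the file headers, Feature Extraction 10.5.1.1 made the scanner files. The deposited processed signal is an intensity from which, per the file headers, the program took the background and spatial trends array by array, without setting arrays against each other. Flags of 0 or 1 for spots above background and outliers are other columns of the deposited files. The deposited value table is a ratio, the processed signal over each array's median (largest relative deviation 1.7e-06).

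Control spots and outlier spots were left out. Log2 signals were scaled to each array's 75th percentile over the 6598 probes flagged well above background on all 8 arrays. Probes above background on at least 2 arrays were tested, with the brightest probe kept per gene (brightest among those above background on all 5 arrays for the described genes), which left 15065 genes. They were fitted with limma 3.58.1 in R 4.3.3 (lmFit, eBayes, 3 groups, two-sided, Benjamini-Hochberg), after the script had been tested on simulated data. Levels are log2 signals relative to that percentile, and levels of different probes are not comparable. The number of arrays limits the precision. Of the probes, 24375 were named by accession, 6301 by symbol and 2419 by synonym in a RefSeq table (GRCm38.p6), while 8079 kept the file's name.

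Named were the 12 genes of lowest p per direction with an official symbol and groups that do not overlap, up to 2 genes of lowest p per list with at least 5 measured, and a fixed set of genes of Ras signalling, cell cycle and HSC identity. Genes outside this rule (Zg16, Zc3h13, Cyren, Swap70, Ptprz1 and other list members) were chosen after their values were seen. Some genes that the rule named are not reported here, though counts include them. The genes described, the lists and the words were chosen with earlier results of these data known. Alternatives were normexp with an offset of 50, quantile normalization, scaling to the median or over all probes, the value table, 2 groups only, slide or replicate blocks, other probe filters, the mean over probes and each array left out.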

Additional observations from a re-analysis of the deposited data

How the results depend on the processing

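The chief limits are the 2 control arrays, the dim signal and the overlap of genotype with slide, none of which an alternative removes. Of the 21 alternatives, the slide as a block left all 24 top genes with their sign and none past the threshold. These 24 were chosen for a low p on the same arrays, so their kept sign is no test of the slide. The fit with the slide as a block rests on the NrasG12D/+ arrays, of which replicate 3 alone lay on the slide of NrasG12D/G12D. Genes past an adjusted p of 0.05 in limma numbered 1 with quantile normalization, scaling to the median or no filter on dim probes (Btbd14a each time), 1 with only the 2 groups compared or the slide as a block (BC004015 both times), and 0 to 8 with 1 array left out; none of those single genes was above background on all 5 arrays. Of the described genes, 0 passed in any setting except without Nras+/+ replicate 2, where 1 did: Ptprz1, at -2.68 and 10.18 in Nras+/+ and 7.86, 10.09 and 8.96 in NrasG12D/G12D (limma adjusted p = 0.0367 without that array, 0.727 with it), so the range with 1 array left out is 0 to 1. The share of genes with a lower mean was 50.9% with scaling to the median, 43% with every probe in the scaling, 36% in the value table and, as its construction sets it, 50.1% with probe GC centred. Genes with groups that do not overlap numbered 734 higher with scaling to the median and 714 higher with probe GC centred. They numbered 978 higher and 612 lower with every probe in the scaling, and 1210 higher and 483 lower in the value table. With 1 array left out they ranged from 436 to 1001 higher and from 1240 to 2439 lower. The lower ends are the unchanged counts without a NrasG12D/+ array. Without a Nras+/+ or NrasG12D/G12D array fewer values have to lie apart, so the rule is met more often by construction. At an unadjusted p under 0.05 the counts were 155 higher with scaling to the median, 224 higher and 81 lower with every probe in the scaling, 273 higher and 71 lower in the value table, 130 higher and 397 lower with the slide as a block, 136 higher with probe GC centred, and 22 to 121 higher with 1 array left out (22 without Nras+/+ replicate 2). Named genes whose sign relative to all described genes turned were 14 of 93. With the slide as a block these were Csf1r (0.064), Lmo2 (1.65), Ldb1 (-0.012), Eif4g1 (1.66), Psme3 (0.99), Tet3 (0.84), Bcl2 (0.062) and Traf2 (-0.0060). With quantile normalization they were Slamf1 (0.048) and Stat5a (-0.0280), with probe GC centred Slamf1 (0.22) and Stat5a (-0.082), with the mean over probes Myl6 (0.0081) and with genes above background on all 8 arrays Ube2r2 (-0.18). With 1 array left out the values ranged from -1.35 to 1.06 for Slamf1 (the latter without Nras+/+ replicate 2), -0.56 to 0.56 for Stat5a (-0.56 without Nras+/+ replicate 1, -0.51 without NrasG12D/G12D replicate 2), -2.17 to 0.28 for Myl6 and -3.93 to 1.13 for Tet1 (the latter without Nras+/+ replicate 1), and -2.43 to 0.52 for Polr2i (the latter without Nras+/+ replicate 2). The cause was not tested for any of these. Same-numbered samples deviated from their group means with correlations of 0.08 and 0.09 across genes over 2 pairs of numbers shared by the genotypes, so the numbers were not taken as pairs; the fit with the replicate block gave 0 genes past the threshold and 94 higher and 208 lower at an unadjusted p under 0.05.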
